A study of Mus musculus with 9 samples.

Results

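The fibroblast growth factor (FGF) pathway was followed through 9 genes in whole mouse embryos, namely the ligand gene Fgf8, the receptor genes Fgfr1 and Fgfr2, the feedback inhibitor genes Spry1, Spry2, Spry4 and Dusp6, and the target transcription factor genes Etv4 and Etv5. Members were all probe sets annotated to exactly 1 of these symbols. All 9 genes were found, with 14 probe sets among 22626 tested. Of the 9 genes, Fgfr1, Fgfr2, Spry2, Spry4 and Etv5 had 2 probe sets each.

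The study profiled embryos at 9.5 days post coitum (dpc) that carried targeted alleles of Notch1, which encodes a Notch receptor, or of Dll3, which encodes a Notch ligand. Total RNA of whole embryos was hybridised to 9 arrays in 5 genotype groups. Notch1tm1Con/tm1Con embryos, labelled Notch1 null, had 2 arrays, and Notch1tm1Con/+ embryos, labelled Notch1 het, had 1. Wild-type embryos (+/+), Dll3neo/+ embryos (Dll3 het) and Dll3neo/neo embryos (Dll3 null) had 2 arrays each. A strain, C57BL/6J, is named for 1 Notch1 null array, and the labels do not give one for the other arrays. The labels do not say whether the arrays of a group came from separate embryos, pools or litters, so every p-value reflects array-to-array spread that could be technical. In whole embryos, fewer cells of a type and less RNA per cell cannot be told apart.

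Each deposited value is a ratio. It sets the signal of a probe set on an array against a single number for that probe set, and for all 14 members the median over the 9 arrays is 1. A value of 1.2 therefore means signal above that probe set's own middle level. Levels of different genes, or of different probe sets of a gene, cannot be compared, and neither the presence of a transcript nor that of the embryo's tissue markers can be checked, only how they differ between arrays. Fold changes between arrays are kept. Group differences are given as log2 differences ± the standard error (SE) of a limma fit over all probe sets, with 95% intervals, and a change is called where the Benjamini-Hochberg adjusted p over 22626 probe sets is under 0.05. The single Notch1 het array has no replicate, and its error is taken from the spread in the other groups.

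FGF ligands bind receptor tyrosine kinases at the cell surface, and the receptors pass the signal through Ras and the MAP kinase cascade to the nucleus. There the ETS factors ETV4 and ETV5 are induced and activate further genes. The same signal induces its own inhibitors: Sprouty proteins restrain the cascade below the receptor, and DUSP6 removes the activating phosphates from ERK. In the embryo at this stage, Fgf8 is known to be expressed at the midbrain-hindbrain boundary, in the tail bud, in the pharyngeal arches and in the ectoderm of the limb bud. Its graded signal in the presomitic mesoderm helps set where somites form, and Notch signalling runs the segmentation clock in the same tissue. Etv4, Etv5, the Sprouty genes and Dusp6 are therefore widely used as readouts of FGF activity.

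Some features of the arrays bear on every value below. Replicate arrays correlated over probe sets at 0.651 to 0.804 and arrays of different groups at 0.426 to 0.743. Dll3 null replicate 2 correlated at 0.743 and 0.709 with the Dll3 het arrays, above its 0.651 with its own replicate. These correlations were taken on the log2 ratios, and 2811 of 22626 probe sets had a median lower than 1 by more than 0.002. Such an offset is shared by the arrays and adds to every correlation, so the values do not measure likeness of expression alone. Of the targeted genes, Notch1 signal rose in 1 of 2 probe sets in the arrays with the Notch1 null label. Probe set 1418633_at read 1.467 and 1.685 there, against 0.916 and 1.011 in wild type (log2 0.71 ± 0.13, limma adjusted p = 0.0138). The other, 1418634_at, read 1.311 and 1.744 against 0.974 and 1.018 and did not pass (log2 0.6 ± 0.23, limma adjusted p = 0.142). The Dll3 probe set read 0.804 and 0.933 in Dll3 null against 1.093 and 1 in wild type (limma adjusted p = 0.486). The positions of these probe sets relative to the targeted parts of the genes were not known, so they do not check the labels. The genotype names below are those of the labels, and every direction given for Notch1 null carries that limit. The added dap control transcripts averaged between 0.444 and 0.468 on the 4 Dll3 arrays, 5.35 and 2.87 on the Notch1 null arrays, 1 on the Notch1 het array, and 6.71 and 9.2 in wild type. Every array with a targeted allele, the Notch1 het array included, thus lay below both wild-type arrays in dap, and the Dll3 arrays lay farthest from them. Every comparison with wild type is therefore also a comparison of dap levels. The part of what set the dap level in the member values was not tested.

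**Figure D1:**
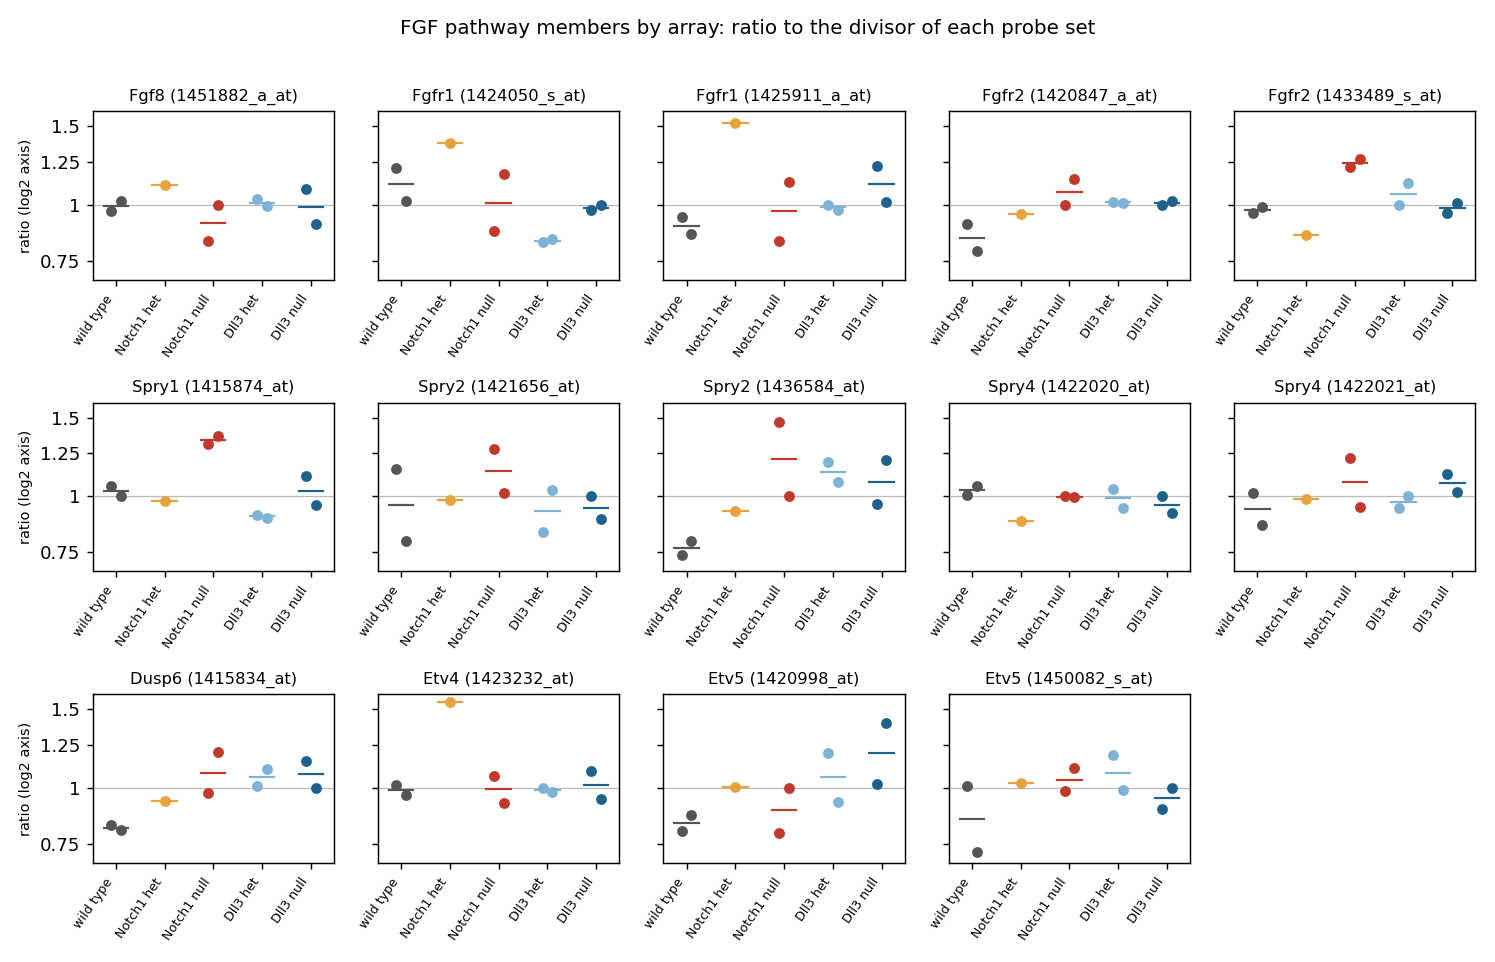
Ratios of the 14 member probe sets (vertical axis, log scale, each relative to that probe set's own median) on each of the 9 arrays, grouped by genotype. Most points lie close to 1 in every genotype, and the Notch1 het array stands highest for Fgf8, both Fgfr1 probe sets and Etv4.

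The ligand gene Fgf8 varied little, and its spread over the arrays was at the 28.9 percentile of all probe sets. Its probe set, 1451882_a_at, read 0.83 and 1 in the arrays labelled Notch1 null, 1.107 in Notch1 het, 0.968 and 1.021 in wild type, 1.032 and 0.993 in Dll3 het, and 1.083 and 0.905 in Dll3 null. The Notch1 het array was the highest and a Notch1 null array the lowest, and the wild-type arrays overlapped with those of both homozygous groups. The highest array exceeded the lowest by 1.33-fold. The log2 difference from wild type was -0.13 ± 0.13 in Notch1 null, with a 95% interval of -0.42 to 0.17. In Dll3 null it was -0.01 ± 0.13, with an interval of -0.3 to 0.29. Neither passed the test (limma adjusted p = 0.639 and 0.994). A change in Fgf8 of 2-fold in either homozygous group lay outside these intervals.

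Fgfr1 encodes the receptor that carries most FGF signal in the early mesoderm. Probe set 1424050_s_at read 0.873 and 1.174 in Notch1 null, 1.377 in Notch1 het, 1.211 and 1.02 in wild type, 0.825 and 0.838 in Dll3 het, and 0.972 and 1 in Dll3 null. The Notch1 het array was the highest of all 9, and both Dll3 het arrays were the lowest pair. The second probe set, 1425911_a_at, read 0.832 and 1.127 in Notch1 null, 1.521 in Notch1 het, 0.939 and 0.859 in wild type, 1 and 0.975 in Dll3 het, and 1.219 and 1.014 in Dll3 null. Again the Notch1 het array was the highest, but the Dll3 het arrays were not the lowest here. The largest log2 difference of any member came from this probe set in Notch1 het against wild type, 0.76 ± 0.19 with an interval of 0.33 to 1.19, and it missed the threshold (limma adjusted p = 0.0689). The first probe set differed there by 0.31 ± 0.18 (limma adjusted p = 0.405). In Dll3 het against wild type the first probe set differed by -0.42 ± 0.15, which did not pass either (limma adjusted p = 0.211), and Notch1 null differed from wild type by -0.13 ± 0.15 and 0.11 ± 0.15. Over the 9 arrays the pair of Fgfr1 probe sets correlated at 0.59.

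Fgfr2 encodes a receptor of epithelia and mesenchyme that is needed for limb outgrowth. Probe set 1433489_s_at read 1.213 and 1.269 in Notch1 null, 0.855 in Notch1 het, 0.957 and 0.989 in wild type, 1 and 1.12 in Dll3 het, and 0.961 and 1.008 in Dll3 null. The arrays labelled Notch1 null were the highest pair and the Notch1 het array was the lowest. Probe set 1420847_a_at read 0.998 and 1.142 in Notch1 null, 0.953 in Notch1 het, 0.907 and 0.788 in wild type, 1.017 and 1.009 in Dll3 het, and 1 and 1.021 in Dll3 null. Here the wild-type arrays were the lowest pair and did not overlap with any other group. Against wild type, Notch1 null differed by 0.35 ± 0.11 and 0.34 ± 0.12 in these probe sets, and neither passed the test (limma adjusted p = 0.0707 and 0.108). With the probe sets of a gene averaged before the fit, the Fgfr2 difference was 0.34 and passed (limma adjusted p = 0.0421), the only 1 of 20 alternatives that did. Over these the adjusted p reached 0.278 for the first probe set and 0.442 for the second. Dll3 null differed from wild type by 0.02 ± 0.11 in the first and 0.26 ± 0.12 in the second (limma adjusted p = 0.977 and 0.497).

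The DNA just before the annotated start of a gene was read for letters that bear on a Notch study, since RBPJ is the DNA-binding partner of the cleaved Notch receptor. Sequences are those of RefSeq on assembly GRCm38.p6, and the table held 5 of the 9 member genes with 6 start sites. Fgf8, Fgfr1, Spry4 and Etv4 were not in it. On both strands of the 250 bases before each start, the RBPJ letters TGGGAA were found in 2 of 6 member windows and in 21.6% of 32851 windows over all genes. The ETS core CCGGAA, bound by ETV4 and ETV5 among many factors, was found in 0 of 6 and in 12.0% of all windows, and the hypoxia response core ACGTG in 1 of 6 and in 16.6%. Fgfr2 (chr7:130266809-130267058, minus strand) and Dusp6 (chr10:99262981-99263230, plus strand) are shown because their levels ran most alike over the arrays among all member pairs. The stretch at the further start site of Etv5 (chr16:22438583-22438612, minus strand) is shown because it holds the RBPJ letters more than once. Capitals mark the RBPJ letters, which in Fgfr2 lie on the other strand and read TTCCCA, 104 bases before the start, and the Dusp6 window held none of the 3 motifs. A match in such short letters describes the sequence and not a bound site.
Fgfr2: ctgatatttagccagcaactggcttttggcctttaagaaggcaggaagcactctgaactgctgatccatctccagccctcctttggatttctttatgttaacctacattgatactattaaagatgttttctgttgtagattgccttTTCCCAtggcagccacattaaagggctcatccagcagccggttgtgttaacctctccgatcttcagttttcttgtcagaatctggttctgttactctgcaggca
Dusp6: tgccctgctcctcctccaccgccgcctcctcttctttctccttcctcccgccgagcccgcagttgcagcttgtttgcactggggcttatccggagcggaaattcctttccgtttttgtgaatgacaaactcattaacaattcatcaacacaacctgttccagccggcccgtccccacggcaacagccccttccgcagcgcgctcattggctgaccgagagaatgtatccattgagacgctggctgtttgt
Etv5: catgaaTGGGAAggcTGGGAAttgggtgga

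Spry1 encodes a Sprouty inhibitor that is known to limit receptor tyrosine kinase signals. Its probe set, 1415874_at, read 1.308 and 1.365 in Notch1 null, 0.977 in Notch1 het, 1.053 and 1 in wild type, 0.91 and 0.894 in Dll3 het, and 1.111 and 0.955 in Dll3 null. The arrays labelled Notch1 null were the highest pair and the Dll3 het arrays the lowest, with no overlap. Notch1 null differed from wild type by 0.38 ± 0.11, or 1.3-fold, with an interval of 0.13 to 0.63, just short of the threshold (limma adjusted p = 0.0621). It passed under 2 of 20 alternative analyses, whose adjusted p ranged from 0.0376 to 0.257. Dll3 null differed from wild type by 0.01 ± 0.11, and the difference between the homozygous groups was 0.38 ± 0.11 (limma adjusted p = 0.0834). The Spry1 response of the 2 lines was therefore not shown to differ.

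Spry2 is a Sprouty gene known to be induced by FGF in the limb bud and the brain. Probe set 1436584_at read 1.467 and 1 in Notch1 null, 0.928 in Notch1 het, 0.741 and 0.793 in wild type, 1.195 and 1.079 in Dll3 het, and 0.963 and 1.206 in Dll3 null. The wild-type arrays were the lowest pair and did not overlap with any other group, while the Notch1 null arrays lay far apart. Notch1 null exceeded wild type by 0.66 ± 0.18, or 1.58-fold, with an interval of 0.25 to 1.07, and this stood at the edge of the threshold (limma adjusted p = 0.051). It passed in 5 of 20 alternatives, with adjusted p from 0.043 to 0.256 and a log2 difference from 0.38 to 0.94. Without Notch1 null replicate 2 the difference was 0.94 (limma adjusted p = 0.0482). The values of 0.57 ± 0.18 in Dll3 het and 0.49 ± 0.18 in Dll3 null against wild type did not pass (limma adjusted p = 0.171 and 0.4). The other Spry2 probe set, 1421656_at, read 1.279 and 1.016 in Notch1 null, 0.98 in Notch1 het, 1.154 and 0.793 in wild type, 0.834 and 1.035 in Dll3 het, and 1 and 0.892 in Dll3 null. Its groups overlapped, Notch1 null differed from wild type by 0.25 ± 0.19 (limma adjusted p = 0.496), and over the arrays it correlated with the first at only 0.22.

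Spry4, which encodes a further Sprouty inhibitor, varied little. Probe set 1422020_at read 1 and 0.995 in Notch1 null, 0.879 in Notch1 het, 1.01 and 1.055 in wild type, 1.04 and 0.943 in Dll3 het, and 1.001 and 0.919 in Dll3 null. Its spread over the 9 arrays was at the 7.92 percentile of all probe sets, and its highest array exceeded its lowest by 1.2-fold. Probe set 1422021_at ranged from 0.863 to 1.217, with the wild-type array replicate 2 the lowest and Notch1 null replicate 1 the highest. Against wild type, Notch1 null differed by -0.05 ± 0.11 and 0.2 ± 0.14 in these probe sets, and Dll3 null by -0.11 ± 0.11 and 0.19 ± 0.14. The probe sets correlated at -0.18, so they gave no common Spry4 profile across these arrays.

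Dusp6 encodes the phosphatase that inactivates ERK and is a sensitive target of FGF signalling. Its probe set, 1415834_at, read 0.973 and 1.202 in Notch1 null, 0.934 in Notch1 het, 0.827 and 0.804 in wild type, 1.009 and 1.105 in Dll3 het, and 1.151 and 1 in Dll3 null. The wild-type arrays were the lowest pair, below every array with a targeted allele. Against wild type, Notch1 null differed by 0.41 ± 0.13, Dll3 null by 0.4 ± 0.13 and Dll3 het by 0.37 ± 0.13, and none passed (limma adjusted p = 0.0888, 0.349 and 0.207). These differences share the same wild-type arrays and are not independent of each other. Between the homozygous groups Dusp6 differed by 0.01 ± 0.13, with no call.

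Etv4 gave the only call among the members. Its probe set, 1423232_at, read 1.062 and 0.928 in Notch1 null, 1.554 in Notch1 het, 1.018 and 0.963 in wild type, 1 and 0.979 in Dll3 het, and 1.089 and 0.943 in Dll3 null. The Notch1 het array stood alone above the other 8, which lay between 0.928 and 1.089. Etv4 rose in Notch1 het against wild type by 0.65 ± 0.14, or 1.57-fold, with an interval of 0.33 to 0.97 (limma adjusted p = 0.0488). This is 1 array against 2 that also differ in their dap level, and the call ended in 14 of 19 alternatives, with adjusted p from 0.0418 to 0.194, including the loss of any of the other 8 arrays. Notch1 null differed from wild type by 0 ± 0.12, with an interval of -0.26 to 0.27, and Dll3 null by 0.03 ± 0.12.

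Etv5 encodes the close relative of ETV4. Probe set 1420998_at read 0.795 and 1 in Notch1 null, 1.003 in Notch1 het, 0.801 and 0.869 in wild type, 1.196 and 0.932 in Dll3 het, and 1.023 and 1.395 in Dll3 null. Both Dll3 groups lay above wild type without overlap, whereas the Notch1 null arrays spanned the wild-type values. Dll3 null differed from wild type by 0.52 ± 0.18, with an interval of 0.11 to 0.93 (limma adjusted p = 0.375), and Notch1 null by 0.1 ± 0.18 (limma adjusted p = 0.823). Notch1 null lay below Dll3 null by a log2 difference of -0.42 ± 0.18, which did not pass (limma adjusted p = 0.229). Probe set 1450082_s_at ranged from 0.719 to 1.183 with overlapping homozygous groups, and it correlated with the first at 0.36. Etv4 and Etv5 did not run together over the arrays (correlation -0.02 over 9 arrays). In the Etv5 promoter windows the RBPJ letters stood in the stretch printed above.

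**Figure D2:**
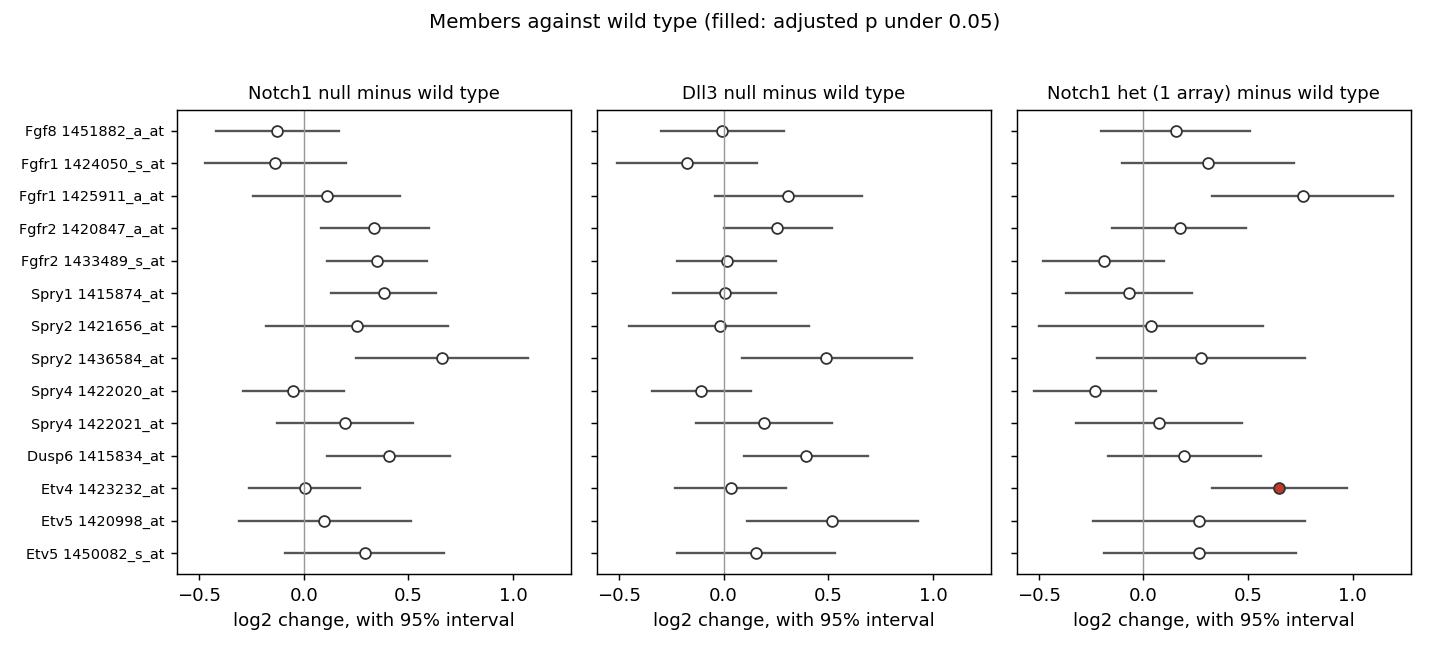
Log2 difference (horizontal axis) with its 95% interval for each of the 14 member probe sets in Notch1 null, Dll3 null and Notch1 het, each against wild type. Etv4 in Notch1 het against wild type is the only called value, and most intervals hold 0.

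Notch1 null against wild type asked about embryos homozygous for the receptor allele. Spry2 1436584_at, Dusp6, Spry1 and Fgfr2 had the largest estimates, all higher in Notch1 null, and Fgf8 and Etv4 had intervals around 0. By limma 0 of 14 members were called, against 9.45% of all probe sets, and 5 of 14 had an unadjusted p under 0.05, against 5350 of 22626 probe sets. Of the members, 11 lay above 0 and 3 below, with a median log2 difference of 0.224 against -0.0298 over all probe sets. The arrays did not overlap for 5 members that were higher and 1 that was lower, against 21.2% and 34.0% of all probe sets. The 5 higher members were both Fgfr2 probe sets, Spry1, Spry2 1436584_at and Dusp6, and the lower one was Spry4 1422020_at. At most 2 members were called in any alternative.

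Notch1 het against wild type asked about a reduced dose of the receptor gene. Etv4 was the 1 of 14 members called, against 2.76% of all probe sets. The members' median log2 difference was 0.184 against 0.00499 over all probe sets. The single array lay above both wild-type arrays for 9 members and below both for 3, against 38.5% and 38.8% of all probe sets. Compared with the Notch1 null arrays, 0 of 14 members were called, against 1.78%, and 5 had an unadjusted p under 0.05, against 3868 of 22626 probe sets. The Notch1 null arrays lay above the Notch1 het array for 7 members and below it for 5, against 31.7% and 44.5%. There Etv4 differed by -0.65 ± 0.14 (limma adjusted p = 0.0608) and Fgfr1 1425911_a_at by -0.65 ± 0.19 (limma adjusted p = 0.119), while Fgfr2 1433489_s_at differed by 0.54 ± 0.13 (limma adjusted p = 0.0747).

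In Dll3 null against wild type 0 of 14 members were called, against 0.0884% of all probe sets, and 3 had an unadjusted p under 0.05 in limma, against 2307 of 22626 probe sets. The 3 were Spry2 1436584_at, Dusp6 and Etv5 1420998_at. The arrays did not overlap for 6 members that were higher and 2 that were lower, against 20.8% and 19.9%. In Dll3 het against wild type 0 of 14 were called, against 0.486%, and 4 had an unadjusted p under 0.05, against 3623 of 22626 probe sets, with 6 members higher and 2 lower without overlap, against 20.5% and 26.6%. Dll3 null against Dll3 het gave 0 calls among the members and 0% of all probe sets, and no member had an unadjusted p under 0.05 there, against 1201 of all probe sets. The member differences in that comparison ran from -0.19 for Etv5 to 0.25 for Fgfr1, and all 14 intervals held 0. Without overlap, 4 members were higher and 0 lower, against 21.0% and 12.5%. Between the arrays labelled Notch1 null and Dll3 null, 0 of 14 members were called, against 5.74%, and 3 had an unadjusted p under 0.05, against 4641 of 22626 probe sets. The 3 were Spry1, Fgfr2 1433489_s_at and Etv5 1420998_at. There 3 members were higher and 1 lower without overlap, against 17.4% and 35.9%. Over the 7 comparisons and 98 member tests, 1 value passed, no estimate reached 2-fold, and 3 intervals extended past 2-fold.

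Where a genotype group stood apart from all other arrays, the pattern differed between members. The Notch1 het array was the highest for 4 of 14 probe sets, namely Fgf8, both of Fgfr1 and Etv4, against 15.8% of all probe sets, and the lowest for 2, against 12.5%. The wild-type pair was the lowest for 3 of 14, Fgfr2 1420847_a_at, Spry2 1436584_at and Dusp6, against 5.69%, and the highest for 0, against 6.77%. The Notch1 null pair was the highest for 2, Fgfr2 1433489_s_at and Spry1, against 7.08%, and the Dll3 het pair was the lowest for 2, Fgfr1 1424050_s_at and Spry1, against 4.04%. No member had its lowest pair in Notch1 null (11.3% of all probe sets) or its highest in Dll3 het (3.67%), and none had either in Dll3 null (2.53% highest and 1.41% lowest). With 14 probe sets, some of the same gene, these counts are a description.

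Fgf8 and Etv4 are known to be expressed at the midbrain-hindbrain boundary, in the tail bud and in the arches and limb buds, so markers of these regions were read beside them. In the Notch1 het array the 10 boundary probe sets averaged a log2 ratio of 0.23, against -0.31 to 0.03 on the other 8 arrays. Of these, 5 of 10 were highest there, namely those of Pax8, En1 and Gbx2 and both of Fgf17. That array was the highest for 15.8% of all probe sets, the share to set beside each such count in this paragraph. En2, Pax5 and Lmx1b read 0.903, 1 and 1.032 in Notch1 het, each between the wild-type arrays. Wnt1 and Otx2 read 1.2 and 1.224, above both wild-type arrays but not the highest. Gbx2, a homeobox gene of the anterior hindbrain, read 1.76 in Notch1 het against 0.903 to 1.136 elsewhere, and it rose against wild type by 0.80 ± 0.15 (limma adjusted p = 0.0299). It was the 1 of 10 boundary probe sets called, and its call was lost in 11 of 19 alternatives, run after the data were seen (limma adjusted p from 0.0235 to 0.135). Over all probe sets, 0.990% were called higher in Notch1 het against wild type. Fgf17, a ligand of the Fgf8 subfamily, read 1.318 and 1.448 in its probe sets in Notch1 het, the highest array in each, without a call. These Fgf17 probe sets are also in the tail bud list, so they count in both lists. Tail bud markers averaged 0.19 in Notch1 het against -0.25 to 0.06 elsewhere, with 7 of 19 highest there and 0 called against wild type. Pharyngeal arch and limb bud markers averaged 0.03 in Notch1 het, below the 0.05 and 0.1 of the wild-type arrays, with 3 of 17 highest there and 0 called (limma). Forebrain markers averaged -0.26 and yolk sac markers 0.39 in that array, against -0.11 and -0.02, and -0.34 and 0.79, in wild type. Their part in the Etv4 value was not tested.

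**Figure D3:**
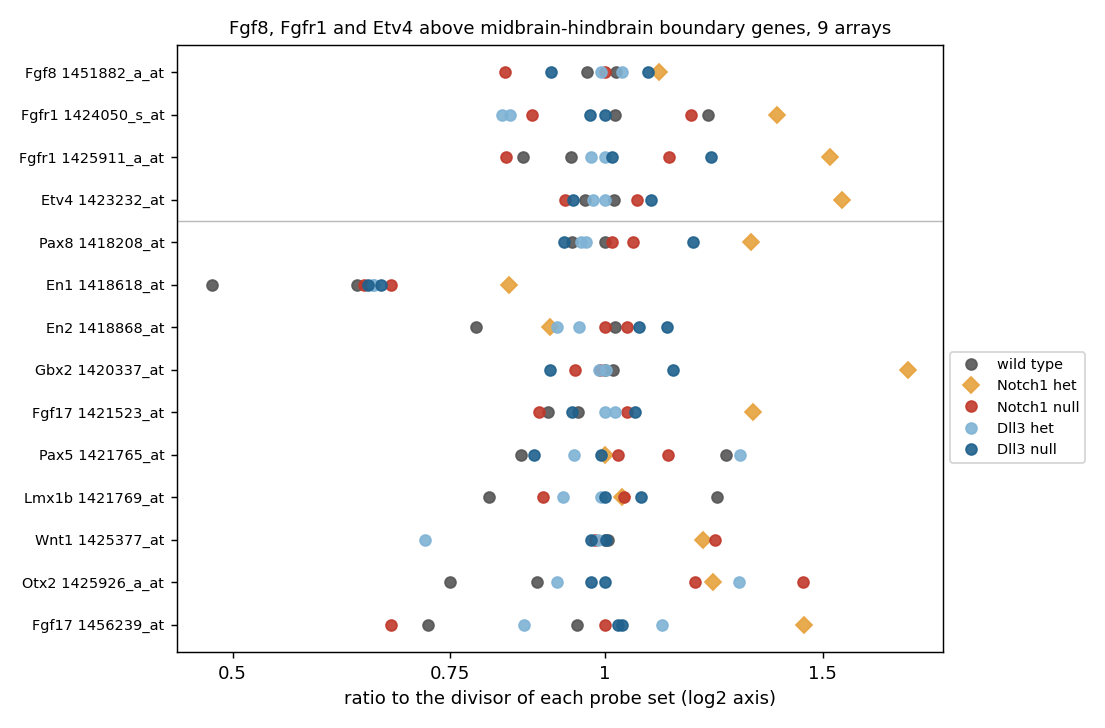
Ratios (horizontal axis, log scale) of Fgf8, Fgfr1, Etv4 and the midbrain-hindbrain boundary genes on each of the 9 arrays, by genotype, with a row for each probe set. The Notch1 het array reads 1.554 for Etv4 and 1.76 for Gbx2, above the other 8 arrays in both.

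The other genes of the FGF pathway were read from 5 lists, ligands, receptors and cofactors, the Ras-MAPK relay, feedback inhibitors and responsive genes, of which 70 genes with 122 probe sets were measured. In the arrays labelled Notch1 null against wild type, 9 probe sets of 7 genes rose and 11 of 9 genes fell, or 7.38% and 9.02%, against 3.46% and 5.99% of all probe sets, and the median was 0. The lists were chosen with earlier results of these data known, so these shares, like those of the other comparisons, are a description only. None of the 31 ligand probe sets was called (limma, 0 of 21 genes). The receptors and cofactors had 1 higher and 4 lower of 31, the relay 4 higher and 2 lower of 30, the other feedback inhibitors 2 and 2 of 18, and the responsive genes 2 and 3 of 12. The calls thus ran in both directions. With each array centred on its median they were 11 and 9, and under quantile normalization 3 and 5. Leaving out a single array of the groups compared left 4 and 3 without Notch1 null replicate 1, 2 and 3 without replicate 2, 1 and 4 without wild-type replicate 1, and 1 and 2 without wild-type replicate 2.

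Among the genes that rose, Bhlhe40, a transcription factor also induced by low oxygen, read 3.36 and 4.705 in Notch1 null against 0.943 and 1.048 in wild type. All other arrays lay between 0.899 and 1.055. It rose by 2 ± 0.15, or 4-fold (limma adjusted p = 0.000547). Egr1, an immediate early gene downstream of ERK, read 2.075 and 1.768 against 0.948 and 1, and rose by 0.98 ± 0.2 (limma adjusted p = 0.0174). Sos2, an exchange factor that activates Ras, rose by 0.63 ± 0.12 (limma adjusted p = 0.0151), and Il17rd, the Sef inhibitor of FGF signalling, by 0.45 ± 0.1 (limma adjusted p = 0.0251). Hs6st2, a heparan sulfate sulfotransferase, rose by 0.63 ± 0.11 in 1 of its 3 probe sets (limma adjusted p = 0.0113), and by 0.89 ± 0.11 in Dll3 het against wild type (limma adjusted p = 0.0283). Its other probe sets read -0.16 and 0.11 in Notch1 null, and with probe sets averaged per gene Hs6st2 differed by 0.19 there and 0.37 in Dll3 het (limma adjusted p = 0.324 and 0.166). The wild-type arrays of the called Hs6st2 probe set, at 0.685 and 0.71, were the lowest of the 9. The Bhlhe40 call held whichever array was left out. The calls of Egr1 and Il17rd in Notch1 null ended when any 1 of the 4 arrays compared was left out (limma adjusted p up to 0.112 and 0.157), that of Sos2 without Notch1 null replicate 1 or either wild-type array (up to 0.104), and that of Hs6st2 without Notch1 null replicate 2 or either wild-type array (up to 0.0917). In Dll3 het the Hs6st2 call ended without 6 of the 9 arrays (up to 0.185).

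Among the genes that fell, Dusp9, a phosphatase of ERK like Dusp6, read 0.514 and 0.505 in Notch1 null, 0.694 in Notch1 het, and 1.168 and 1.306 in wild type. The Dll3 arrays lay between 0.834 and 1.073. Dusp9 fell by 1.28 on the log2 scale in this probe set (limma adjusted p = 0.00136) and by 0.98 in 1 more of its 3 (limma adjusted p = 0.00713). In Notch1 het against wild type only the first of the 3 was called, lower by 0.83 (limma adjusted p = 0.0317), and the second differed by -0.45. With probe sets averaged per gene, Dusp9 differed by -0.53 there and the call was lost. Dusp6 and Dusp9 thus had estimates of opposite sign in the arrays labelled Notch1 null, 0.41 for Dusp6 without a call. Map2k2, which encodes the ERK kinase MEK2, fell by 0.86 in 1 of its 2 probe sets (limma adjusted p = 0.00638) and read -0.2 in the other (limma adjusted p = 0.407). The epithelial-mesenchymal factor gene Snai1 fell by 0.6 (limma adjusted p = 0.0131), and Pea15a, which encodes an ERK-binding protein, by 0.56 (limma adjusted p = 0.0152). The Notch1 null call of the first Dusp9 probe set held whichever array was left out, and those of its second and of Map2k2 ended without wild-type replicate 2 (limma adjusted p = 0.0675 and 0.0619). The calls of Snai1 and Pea15a ended when any 1 of the 4 arrays compared was left out (up to 0.0853 and 0.0914), and that of Dusp9 in Notch1 het without 6 of 8 (up to 0.141). Outside the naming rule and chosen after their values were seen, the adaptor gene Gab1 rose in 3 probe sets by 0.42 to 0.51, and the receptor gene Fgfr3 fell by 0.53 in 1 of 2 (limma adjusted p = 0.0367).

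**Figure D4:**
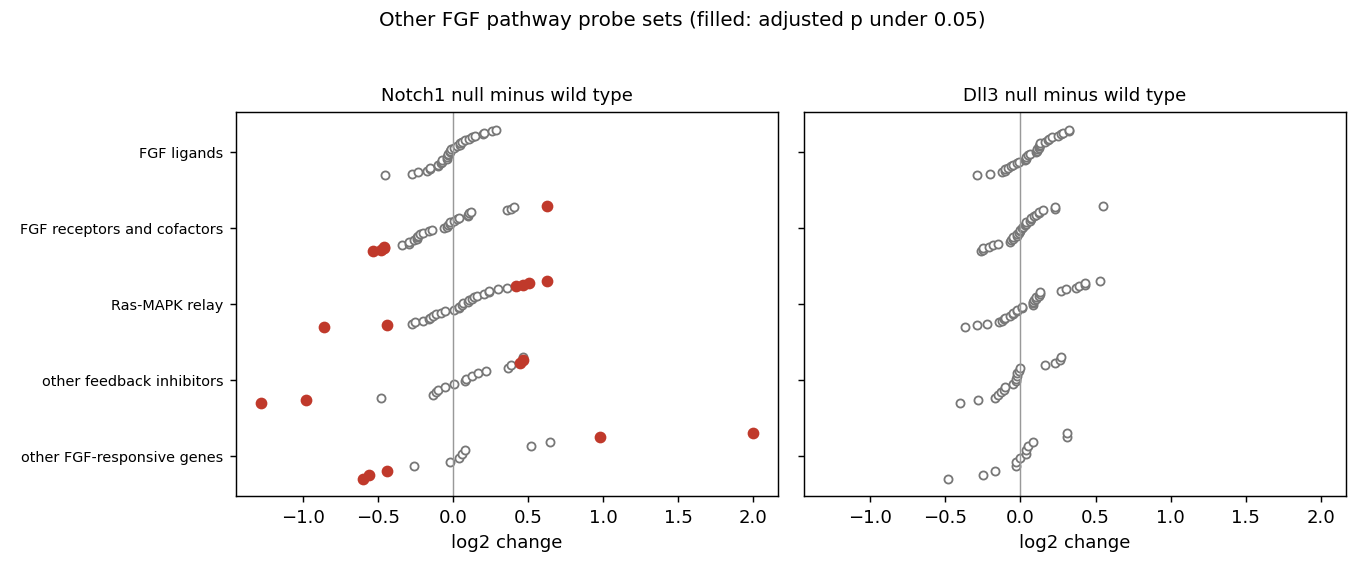
Log2 difference from wild type (horizontal axis) of the 122 other FGF pathway probe sets, by list. The arrays labelled Notch1 null are in the left panel and Dll3 null in the right. In Notch1 null, Bhlhe40 at 2 and Dusp9 at -1.28 lie farthest from 0. The 14 member probe sets are not plotted.

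The other comparisons gave fewer pathway calls. Notch1 het against wild type had 1 higher and 1 lower of 122, or 0.82% each, against 0.990% and 1.77% of all probe sets. These were Ext1, a heparan sulfate polymerase, higher by 0.68 ± 0.15 (limma adjusted p = 0.0433, lost whichever of 8 arrays was left out), and Dusp9. Notch1 null against Notch1 het had 2 higher, Bhlhe40 and Sos2, and 1 lower, Map2k2, or 1.64% and 0.82%, against 0.853% and 0.928% of all probe sets. The Bhlhe40 call held with each of 8 arrays left out, while that of Sos2 ended with any of the 8 left out (limma adjusted p up to 0.134) and that of Map2k2 with 6 of the 8 (up to 0.143). Dll3 null against wild type had 0 of 122 called by limma, and Dll3 het against wild type had 1 higher, Hs6st2, against 0.186% higher and 0.301% lower over all probe sets. Notch1 null against Dll3 null had 6 higher and 6 lower, or 4.92% each, against 2.46% and 3.27% of all probe sets. Among them Bhlhe40, Egr1 and Sos2 were higher, and Dusp9, Grb2 and Pea15a were lower. Grb2 and Pea15a were each called in 1 of 2 probe sets. With only the groups compared, the Bhlhe40 call against Notch1 het was lost. Its call against Dll3 null was lost there too (limma adjusted p = 0.0506), but held with each of 9 arrays left out. The calls of Egr1 and Grb2 ended without either Notch1 null array or without Dll3 null replicate 2 (limma adjusted p up to 0.0935 and 0.137), and that of Sos2 without either Notch1 null array or without Dll3 null replicate 1 (up to 0.0753). The call of Dusp9 ended without Notch1 null replicate 2 or Dll3 null replicate 1 (up to 0.0867), and that of Pea15a without any 1 of the 4 arrays compared (up to 0.119).

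Markers of other states and tissues were read beside these groups. Of 37 probe sets of hypoxia and glycolysis genes, 31 rose in Notch1 null against wild type, with a median difference of 1.06. Their average log2 ratio was 0.93 to 1.2 in the arrays labelled Notch1 null and -0.18 to -0.01 in all others. Its part in the values of Spry1, Fgfr2 and the called pathway genes was not tested. Over all probe sets, 3.46% rose and 5.99% fell in that comparison. Heart muscle genes had 4 of 14 higher, the tail bud list 2 of 19 higher (Nkx1-2 and Cyp26a1), the midbrain-hindbrain boundary list 1 of 10 higher (Otx2), and the pharyngeal arch and limb bud list 2 of 17 lower (Barx1 and Lhx2). The forebrain, placenta, primitive red cell and yolk sac lists had 0 called (limma). The yolk sac average varied within groups, from -0.92 to 0.48 between the Notch1 null arrays and from -0.34 to 0.79 between the wild-type arrays. Its part in the spread of the members between replicates was not tested.

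Over the 9 arrays the member genes did not form a single profile. The highest correlations between genes, each the mean of its probe sets, were 0.76 for Fgfr2 with Dusp6, 0.71 for Fgfr1 with Etv4 and 0.66 for Fgfr2 with Spry2. The lowest was -0.69 for Fgf8 with Spry2. These points share arrays and groups and are a description only. The mean log2 profile of the 6 target genes, centred, read 0.12 and 0.09 in Notch1 null, 0.04 in Notch1 het, -0.09 and -0.2 on the wild-type arrays, 0 and -0.03 in Dll3 het, and 0.06 and 0 in Dll3 null. The probe sets most like it among 20366 compared were of Nampt at 0.96 and of Bhlha15, Wwp1, Nedd4 and Cog4 at 0.94, and 21 exceeded 0.9. For Fgf8 they were Plpp1 at 0.97, Ip6k1 at 0.96, Tsnax and Defb15 at 0.93 and Smad2 at 0.91. All of these are the highest of 20366 values over 9 arrays that fall in 5 groups.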

How the data were processed

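Total RNA of 9 arrays in 5 genotype groups was analysed from the deposited value table. RMA is named in the submitters' processing notes, with no version. The deposited values are linear ratios per probe set: among 22626 tested probe sets the median over the arrays equals 1 for 19796 and is lower by more than 0.002 for 2811, and no source used here describes that division by the authors. Array scan files were not used here.

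Values were converted to log2 with no pseudocount or low-value filter. Of 22690 probe sets, 64 controls were set aside. Symbols came from the platform annotation, which gave 1 symbol for 20380 tested probe sets, several for 691 and none for 1555. limma 3.58.1 in R 4.3.3 fitted 1 mean per genotype with lmFit and eBayes (4 residual and 5.42 prior degrees of freedom), with Benjamini-Hochberg adjustment in each of 7 comparisons. The script was tested on simulated data. Alternatives covered scaling, robust and weighted fits, probe sets averaged per gene, embryo sex, subsets of groups, a replicate block and leaving out each array. Another left out the probe sets whose median over the arrays was lower than 1 by more than 0.002. They are named floor-divided below, though no source used here gives their divisor. Embryo sex was not taken from the labels. It was set from the array values, by whether mean log2 Xist exceeded mean log2 Eif2s3y, which held on 4 arrays. Each ratio is relative to its own probe set, and an array may hold a pool of embryos. This split may therefore not follow sex, and the fits with that covariate cannot decide whether sex matters.

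Replicate deviations correlated between -0.1 and 0.16 across groups, so equal replicate numbers were not taken as pairs. Named pathway genes were the called probe sets of lowest p, 5 each way in Notch1 null against wild type and up to 3 each way elsewhere, and likeness named the 5 highest correlations. Members and lists were chosen with earlier results of these data known.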

Additional observations from a re-analysis of the deposited data

Results flagged for a closer look

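Differences between the Notch1 and Dll3 lines in how far the homozygous arrays lay from wild type passed limma's test of the difference for 6 pathway genes that are not members. As the Notch1 effect minus the Dll3 effect on the log2 scale, they were 1.95 for Bhlhe40 (effects of 2 and 0.05, adjusted p = 0.000938), 0.73 for Sos2 (0.63 and -0.1, adjusted p = 0.0128) and 1.14 for Egr1 (0.98 and -0.17, adjusted p = 0.0146). The difference was -0.88 and -0.7 in 2 of the 3 Dusp9 probe sets (limma adjusted p = 0.00843 and 0.031). It was -0.53 in 1 of 2 Pea15a probe sets (limma adjusted p = 0.0249) and -0.55 in 1 of 2 Grb2 probe sets (limma adjusted p = 0.0229). Of all probe sets, 5.74% passed that test. Wild type cancels in it, so it is the comparison of Notch1 null with Dll3 null and not a further result. Among these calls, the one of Bhlhe40 held with each of 9 arrays left out but was lost with only the groups compared. Leaving out 1 array ended the call of Egr1, Sos2 and Grb2 in 3 cases each, of the first Dusp9 probe set in 2 and of Pea15a in 4.

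Among the members, opposite directions without overlap between arrays were found only in receptor probe sets. The share of all probe sets with such opposite directions was not computed, so this is a description. In heterozygotes against wild type, 38.5% of all probe sets were higher and 38.8% lower without overlap in Notch1, and 20.5% and 26.6% in Dll3. In homozygotes against heterozygotes these shares were 31.7% and 44.5% in Notch1, and 21.0% and 12.5% in Dll3. The differences between the lines were tested after the data were seen. In heterozygotes against wild type, the Notch1 minus Dll3 difference was 0.73 ± 0.18 for Fgfr1 1424050_s_at (effects of 0.31 and -0.42) and -0.31 for Fgfr2 1433489_s_at (effects of -0.19 and 0.12), and neither passed (limma adjusted p = 0.0874 and 0.269). In homozygotes against heterozygotes it was -0.69 for Fgfr1 1424050_s_at and -0.82 for Fgfr1 1425911_a_at (limma adjusted p = 0.254 and 0.204). All of these values rest on the single Notch1 het array.

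Of the other pathway genes, Grb2 differed by -0.44 in heterozygotes against wild type (limma adjusted p = 0.139). In homozygotes against heterozygotes, Bhlhe40 differed by 2.02 and passed (limma adjusted p = 0.03), while Hs6st2 at 0.6, Map2k2 at -1.04 and Snai1 at -0.39 did not (limma adjusted p = 0.204, 0.0988 and 0.374). The shares of all probe sets passing these tests were 1.12% and 0.208%. The Grb2, Bhlhe40, Hs6st2, Map2k2 and Snai1 values also rest on the single Notch1 het array.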

How the results depend on the processing

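Of 1876 alternative values for the 98 member tests, 1852 kept their side of the threshold and 24 did not (14 lost, 10 gained). No called value changed sign; 88 values uncalled in both did. For Notch1 null against wild type, 0 members were called as reported, 1 with each array centred on its median, 1 under robust eBayes, 1 with floor-divided probe sets left out, 2 with array weights and 2 with probe sets averaged per gene, and 0 to 1 when an array was left out. For Notch1 het against wild type, the 1 call (Etv4) became 0 at an adjusted p under 0.01, under quantile normalization, with only the groups compared, with only the arrays of 1 line, with embryo sex as a covariate and with the replicate block, and 0 when any array was left out (range 0 to 0). With the replicate block the Etv4 difference was 0.59 (limma adjusted p = 0.079), and the numbers do not pair the samples. For Notch1 null against Notch1 het, 0 became 1 with probe sets averaged per gene. The other 4 comparisons stayed at 0 throughout. Causes were not tested. Of 428 alternative values for named pathway genes, 125 lost their call, mostly with an array left out. Absolute levels were divided out, so signal over background could not be used.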
